A study of Homo sapiens with 34 samples.

Results

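The genes described here encode the proteins of the cytosolic ribosome. They were taken from the table of counts by symbol: the letters RPL or RPS followed by a number, with or without the ending A, X, L or L1, and RPLP0, RPLP1, RPLP2 and RPSA. The rule found 84 of 26336 genes, namely 31 of the small subunit, 43 of the large subunit, 3 of the stalk and 7 paralogs (RPL3L, RPL7L1, RPL10L, RPL22L1, RPL26L1, RPL39L and RPS27L). FAU and RPL36AL, which also encode ribosomal proteins, do not match the rule. The rule reads the symbol alone.

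The series holds 34 RNA libraries of 4 prostate cell lines of human origin, in 17 groups. RWPE is a non-tumorigenic prostate epithelial line, LNCaP stands for early adenocarcinoma and was derived from a metastasis in a lymph node, and both VCaP and MDAPCa2a derive from metastases in bone. Cells grew on plastic or on an amorphous calcium phosphate (ACP) coating, which stands in for bone mineral. The medium was the line's control medium, one whose serum had been stripped of steroids with charcoal and dextran, or stripped serum with androgen added. The labels give the androgen as 100 mM and call it DHT in one place and testosterone in another, so it is called androgen here. RWPE had plastic control, ACP control and ACP androgen groups and no stripped group. LNCaP and VCaP each had plastic control, plastic stripped, ACP control, ACP stripped and ACP androgen groups. MDAPCa2a had plastic control, plastic stripped, ACP stripped and ACP androgen groups. A group had 2 libraries, except RWPE on ACP with androgen with 3 and VCaP on plastic in stripped serum with 1. Plastic control libraries are labelled as continuous culture and all others as day 4, so that the surface or serum and this label change together in every comparison with plastic control. The treatment protocol in the same labels, however, describes 4 days of culture for plastic control too, and which of the statements holds is not settled by them. Each line had its own control medium, which for RWPE holds no serum, and MDAPCa2a grew on a protein coating on plastic but not on ACP. A difference between lines and a difference between their media therefore cannot be told apart. The labels do not say which replicates came from separate cultures, so p-values measure the spread between these libraries, which may be technical.

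A ribosome holds a fixed set of core proteins, and the genes for them are among the most strongly transcribed in a growing cell. Their mRNAs start with a C followed by a run of pyrimidines, the 5′ terminal oligopyrimidine (TOP) motif, through which the mTOR pathway controls their translation together. In prostate cells, androgen is known to act on growth.

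To show the motif, windows of 60 bases around the annotated start site were read from RefSeq (GRCh38.p14), 40 bases before the start and 20 from it, 5′ to 3′ on the gene's strand. The counts themselves were made on another build, and no value was read by coordinate. Capitals mark the run of C and T that begins with C and lies at or next to the annotated start, where it has 5 or more bases. RPS3A and RPL12 are shown because they had the largest falls with androgen in LNCaP and in VCaP, and RPL3 because it was the next largest fall in VCaP. RPS10 and RPS21 led the rises against plastic control.
RPS3A: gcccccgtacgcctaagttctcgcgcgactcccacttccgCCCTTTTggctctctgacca
RPL12: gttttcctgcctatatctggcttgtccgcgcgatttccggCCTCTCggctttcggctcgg
RPL3: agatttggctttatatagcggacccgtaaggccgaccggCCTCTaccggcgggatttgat
RPS10: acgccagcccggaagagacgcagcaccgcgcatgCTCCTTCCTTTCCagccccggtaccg
RPS21: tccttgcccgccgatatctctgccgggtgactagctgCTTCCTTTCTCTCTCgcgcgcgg
Some paralogs are shown as well, since several of them differed in level between the lines. RPL22 is the only one of their main genes shown.
RPL22: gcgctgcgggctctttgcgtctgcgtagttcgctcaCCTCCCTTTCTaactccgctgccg
RPL22L1: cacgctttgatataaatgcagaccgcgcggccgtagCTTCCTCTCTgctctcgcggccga
RPL26L1: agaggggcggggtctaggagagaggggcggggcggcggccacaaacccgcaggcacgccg
RPS27L: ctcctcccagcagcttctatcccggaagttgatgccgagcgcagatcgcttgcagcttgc
RPL10L: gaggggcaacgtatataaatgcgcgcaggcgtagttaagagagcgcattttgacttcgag
The windows lie at chr4:151099588-151099647 for RPS3A, chr9:127451387-127451446 for RPL12, chr22:39319604-39319663 for RPL3, chr6:34426050-34426109 for RPS10 and chr20:62387063-62387122 for RPS21, with RPS3A and RPS21 on the plus strand and the other three on the minus strand. RPL22L1 kept such a run near its start, like its main gene RPL22, and no run of 5 or more bases lies at the start in the windows of RPL26L1, RPS27L and RPL10L. Promoters were found for 67 of the 84 genes. A C at the annotated start followed by at least 4 bases that are each C or T was found in 47 of them (70.1%). Of all 27305 genes of the promoter annotation, which are more than the genes counted, 1404 had it (5.14%). A run of at least 7 such bases beginning with C within 10 bases of the start was found in 54 (80.6%), against 16.4% of all promoters. Among the genes shown for their changes, RPL3 met neither criterion and RPL12 met only the first, though both have capitals above. All of these are matches of letters on the sense strand in one annotated start per gene.

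Libraries held 15.4 M to 44.8 M counted reads. The basal keratin KRT5 was at 1908 to 9468 CPM (counts of a gene scaled to the size of its library) in RWPE and at most 13.9 CPM in the other lines. The androgen-regulated protease gene TMPRSS2 was at 87.6 CPM or more in every cancer line library and at most 6.09 CPM in RWPE. ERG, which is rearranged in VCaP, was at 123 to 861 CPM there and at most 2.47 CPM elsewhere. These levels go with the labels of RWPE and VCaP, and they do not tell LNCaP from MDAPCa2a.

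Of 8 genes for proteins that the liver secretes, FGG, FGA, FGB and APOA1 set plastic control apart from the rest in each line. APOA2 had at most 3 reads in any library. In LNCaP, TTR had 78 and 92 reads in plastic control and 20 to 196 elsewhere. In VCaP, SERPINA1 was at 10.7 and 13.5 CPM in plastic control and at 3.56 to 13.7 CPM elsewhere. FGG, which encodes a fibrinogen chain, had 51 to 118 reads per library in the 8 of plastic control and at most 1 read in any other. The summed level of the 8 genes was 18.9 and 21.0 CPM in plastic control of RWPE and 0.76 to 3.06 CPM in its other libraries, where FGG, FGA, FGB, APOA1 and APOA2 were at 0. In LNCaP it was 17.8 and 25.1 CPM against 2.23 to 7.78 CPM, and in MDAPCa2a 9.39 and 15.9 CPM against 0.45 to 3.23 CPM. VCaP had 79.4 and 170 CPM against 48.7 to 396 CPM, since the albumin gene ALB and the transthyretin gene TTR were read in all its libraries, while FGG and FGA were at 0 outside plastic control. The part of this signal in the comparisons with plastic control was not tested.

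The 84 genes took between 5.82% and 20.5% of all counted reads of a library. A share of reads is relative: more RNA from these genes and less RNA from the others cannot be told apart. In LNCaP the share was 5.94% and 6.50% on plastic in control medium, 9.60% and 8.11% on plastic in stripped serum, 9.20% and 8.13% on ACP in control medium, 9.63% and 8.86% on ACP in stripped serum, and 5.82% and 6.47% on ACP with androgen. The LNCaP androgen libraries thus lay with plastic control, below all 6 others. In VCaP it was 10.5% and 6.43% on plastic in control medium, 9.09% on plastic in stripped serum, 10.3% and 9.53% on ACP in control medium, 13.6% and 11.8% on ACP in stripped serum, and 7.34% and 7.81% with androgen. Again the androgen libraries were below both stripped ones, while the plastic control replicates of VCaP stood far apart from each other. In MDAPCa2a it was 6.09% and 6.34% on plastic in control medium, 7.83% and 7.86% in stripped serum, 11.6% and 7.25% on ACP in stripped serum, and 9.54% and 6.74% with androgen. The first replicate was the high one in both ACP groups of MDAPCa2a, and these groups overlapped. RWPE had 7.79% and 8.46% on plastic, 12.7% and 12.3% on ACP, and 20.5%, 18.5% and 14.3% on ACP with androgen. The 3 RWPE groups did not overlap, and the third androgen replicate was closest to ACP control.

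**Figure D1:**
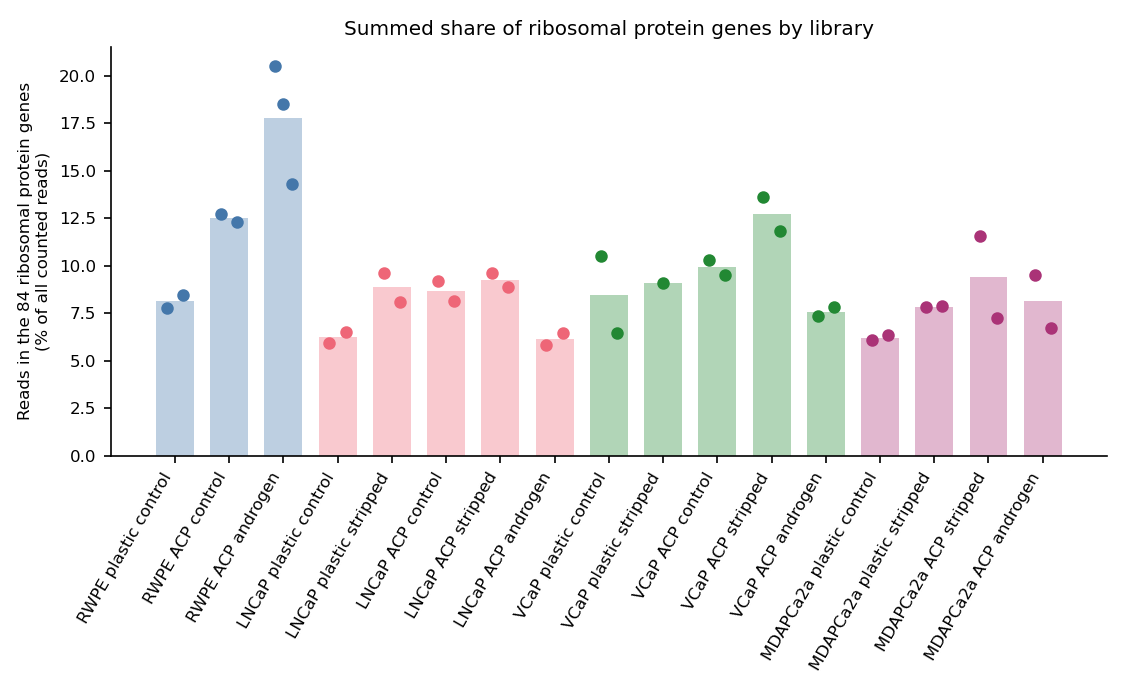
Share of all counted reads in the 84 ribosomal protein genes (%, vertical axis) for the 17 groups (horizontal axis). Points are libraries and bars are group means. RWPE on ACP with androgen is highest at 14.3% to 20.5%, and LNCaP with androgen is at 5.82% and 6.47%.

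The balance of the subunits differed between groups. In RWPE small subunit genes took 40.6% and 40.2% of the reads of the 84 genes on plastic, 46.1% and 45.8% on ACP, and 53.1%, 51.5% and 47.8% on ACP with androgen. In LNCaP this fraction was 38.0% and 38.2% in plastic control and 39.0% to 42.0% in the 8 other libraries, with androgen at 39.0% and 39.6%. In VCaP it was 37.8% and 38.2% in plastic control, 38.7% on plastic in stripped serum, 40.4% and 41.1% on ACP in control medium, 40.1% and 43.6% in stripped serum, and 41.9% and 44.2% with androgen. In MDAPCa2a it was 37.5% and 37.6% in plastic control, 38.2% and 38.5% in stripped serum, and 37.8% to 41.6% on ACP. Both plastic control libraries were thus lowest in each of the 4 lines, and the fraction went highest in RWPE with androgen. Per base of coding sequence, RPS18 of the small subunit (7143 CPM per kb, mean of all libraries) and RPL41, the shortest ribosomal protein (7441 CPM per kb), had the most reads. The stalk protein RPLP1 followed with 4406 CPM per kb. The counts may hold reads outside the coding sequence, which weigh most where it is short, as in RPL41 (75 bases). By reads alone RPL41 was at 558 CPM, below RPLP0 (3285 CPM) and RPS18 (3257 CPM). RPL21 (1.03 CPM per kb, 2 to 26 reads in a library) was far below all of these. It has near-identical copies in the genome, and reads that match several copies may have been dropped or split in counting, so its level is uncertain. The same holds to a lesser degree for all 84, which have many processed copies.

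Relative to the median member of its library, RPS25 varied least over the groups, with an SD of 0.10 (log2 scale) over the group means. RPL31 of the large subunit followed with 0.13. Among the 81 members ranked, which leave out RPL10L, RPL21 and RPL3L, the largest SDs were those of 3 paralogs. These were RPL22L1 (1.98), RPL39L (1.86) and RPL26L1 (1.14). A value of 1 was added before taking log2, which narrows the spread of members near 0, such as RPL39L outside RWPE. In plastic control the fitted log2 change of RPL39L from RWPE to LNCaP was -8.60. The order of these 3 paralogs therefore depends on the added value.

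The first comparison asks how these genes answer to androgen in cells kept on ACP in stripped serum. In LNCaP 34 of 82 members tested fell and 0 rose, where 3.96% of all tested genes fell. RPS3A, a small subunit protein near the mRNA exit, was at 1800 and 1804 CPM in stripped serum and at 789 and 927 CPM with androgen. Both androgen libraries were below both stripped libraries, at 0.471 of the stripped level (log2 change -1.09 ± 0.15 (SE, n = 2 and 2), adjusted p = 0.00207, edgeR's quasi-likelihood test). RPS6, the small subunit protein phosphorylated by S6 kinase, was at 2514 and 2220 CPM against 1199 and 1314 CPM with androgen. It fell by 0.93 ± 0.14 on the log2 scale (adjusted p = 0.00404). RPS15A of the small subunit fell by 0.99 ± 0.20 (adjusted p = 0.0143), and RPL39, a short protein lining the exit tunnel, by 0.98 ± 0.19 (adjusted p = 0.0129).

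The 34 fallen members were 14 of 31 small subunit, 19 of 43 large subunit and 1 of 3 stalk genes, and 0 of 5 paralogs. Of the 82, 80 had a negative log2 change, with a median of -0.57 against -0.01 over all genes tested. Among the stalk genes, RPLP0, the base of the stalk, fell by 0.61 ± 0.12 (adjusted p = 0.0141). RPLP1 (-0.61, adjusted p = 0.073) and RPLP2 (-0.48, adjusted p = 0.167) did not pass. RPL5, a partner of the 5S RNA that also binds MDM2, fell by 0.72 ± 0.16 (adjusted p = 0.022), and its companion RPL11 had a change of -0.47 (adjusted p = 0.107). RPL22L1 (0.06) and RPL7L1 (0.01), a paralog with a role in ribosome assembly, were the only members without a negative sign. The count rests on few libraries. Without either stripped replicate it was 2 (replicate 1) and 3 (replicate 2), without the first androgen replicate 2 and without the second 29. RPS3A passed in all 4 of these fits. A fit of all 34 libraries, in which the other lines set the spread, called 1 member, and offsets for GC content and length gave 43.

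In VCaP 10 of 82 members fell, where 8.8% of all genes fell, and 1 rose, where 8.67% rose. RPL12, a large subunit protein at the base of the stalk, was at 2854 and 2189 CPM in stripped serum and at 786 and 967 CPM with androgen. The groups did not overlap, and the androgen level was 0.348 of the stripped one (log2 -1.52 ± 0.29, adjusted p = 0.00832). RPL3, which helps to form the peptidyl transferase centre, was at 5507 and 3133 CPM against 1611 and 1872 CPM. It fell by 1.31 ± 0.37 (adjusted p = 0.0373), with stripped replicate 1 far above replicate 2. RPLP0 was at 6198 and 4284 CPM against 2513 and 2776 CPM and fell by 0.99 ± 0.30 (adjusted p = 0.0476). RPL10A, RPL36A, RPL10, RPL23A, RPL18, RPL22 and RPS18 fell by 0.85 to 1.05.

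The share of members called lower was thus near that of all genes, while 79 of 82 had a negative sign and their median was -0.64 against -0.03 over all genes. The fallen genes were 8 of 43 large subunit, 1 of 31 small subunit and 1 of 3 stalk genes. The subunits had medians of -0.66 (large) and -0.63 (small), and the difference between them was not tested. The count was 0 without stripped replicate 1, 9 without stripped replicate 2, 0 without androgen replicate 1 and 1 without androgen replicate 2. Without stripped replicate 1, RPL12 (-1.28, adjusted p = 0.057) and RPL3 (-0.80, adjusted p = 0.237) no longer passed. A fit of all lines called 33 members, DESeq2 28, and a fit with offsets for GC content and length 26. The gene that rose was RPL10L, a retrogene copy of RPL10, and it was chosen after its values were seen, since it is under 5 CPM. It had 0 and 0 reads in stripped serum and 7 and 9 with androgen. The pooled androgen level was 5.21-fold a floor of 3 counts over the stripped group. This floor covers counting error of the stripped reads only, so the ratio is no lower bound. RPL10L had 13 and 20 reads on ACP in control medium, and its call was lost without any 1 of the 4 libraries (adjusted p of 0.063 to 0.107).

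In MDAPCa2a no member passed among 80 tested (0 at an unadjusted p under 0.05 in edgeR, 0 in DESeq2), where 0% of all genes passed in either direction. The signs were negative in 79 of 80, with a median of -0.31 against -0.01 over all genes tested. Signs of members that vary together, here and in the other lines, are not separate pieces of evidence. RPS3A had 2980 and 1153 CPM in stripped serum and 2096 and 916 CPM with androgen, so that the groups overlapped and the replicates differed more than the conditions.

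LNCaP and VCaP share no library. They had 6 lower members in common, out of the 34 of LNCaP (17.6%) and of the 10 of VCaP (60%): RPL10, RPL10A, RPL12, RPL36A, RPLP0 and RPS18. With 34 of 82 members lower in LNCaP, several of any 10 members would be among them. Over all genes 3.96% fell in LNCaP and 8.8% in VCaP, and the overlap of these is not given here. RPS18 was at 3676 and 2740 CPM against 1734 and 1557 CPM in LNCaP, and at 6420 and 5821 CPM against 3186 and 3289 CPM in VCaP. The difference of the androgen effects between VCaP and LNCaP was tested in the fit of all lines and called 1 member, RPL10L, where 5.39% of all genes had a higher difference. For RPL12 the effect in VCaP minus that in LNCaP was -0.89 ± 0.31 (adjusted p = 0.0684), for RPL3 -0.89 ± 0.35 (adjusted p = 0.108), for RPL22 -0.66 ± 0.24 (adjusted p = 0.0826) and for RPS3A 0.56 ± 0.52 (adjusted p = 0.549). The test called no core member with an effect that differs between these lines.

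**Figure D2:**
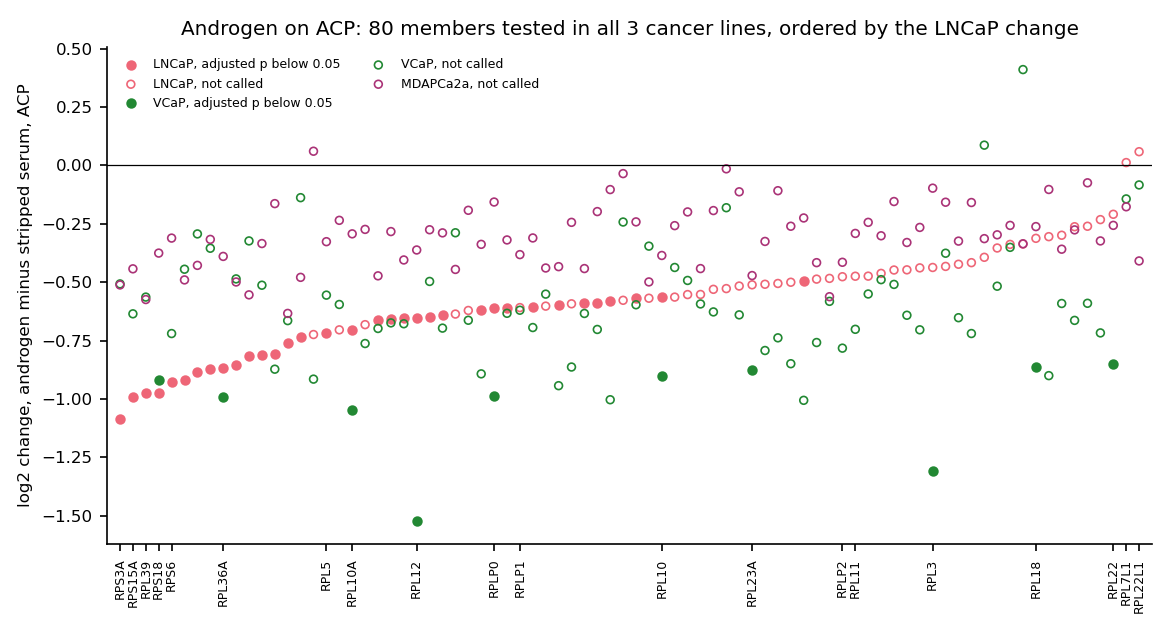
Log2 change with androgen on ACP (androgen minus stripped serum, vertical axis) of the 80 members tested in LNCaP, VCaP and MDAPCa2a (horizontal axis, ordered by the LNCaP change, with some of them named). Filled points passed an adjusted p below 0.05 and open points did not. RPS3A is at the left end with -1.09 in LNCaP, and RPL12 (-1.52) and RPL3 (-1.31) are the lowest VCaP points.

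Other genes of translation were read beside the members. Of 24 genes for elongation factors and other TOP mRNAs, 5 fell and 0 rose in LNCaP (median -0.33), led by the elongation factor gene EEF1B2 (adjusted p = 0.00677). In VCaP 4 fell and 0 rose (median -0.55). Of 11 genes that host small nucleolar RNAs, 3 fell in each line and 0 rose. Mitochondrial ribosomal genes, a separate ribosome, had a median of -0.12 in LNCaP (4 lower, 1 higher of 79) and of 0.32 in VCaP (1 lower, 8 higher). Other genes of like coding length (207 to 890 bases) had medians of -0.07 and 0.09. Of 36 ribosome biogenesis genes, 2 fell in LNCaP and 0 in VCaP, where 1 rose.

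RWPE had no stripped group, and its androgen medium was compared with control medium on ACP. Per the labels' protocol the androgen medium holds stripped serum, and the control medium of RWPE holds none, so serum and androgen cannot be told apart. Here 26 of 83 members rose and 0 fell, where 11% of all genes rose. RPS18 was at 4040 and 3533 CPM in control medium and at 13984, 11476 and 5123 CPM with androgen. All 3 androgen libraries were higher, the third by the least (log2 1.45 ± 0.36, adjusted p = 0.0241). RPS3A was at 3026 and 3161 CPM against 10973, 9075 and 4898 CPM (log2 1.45 ± 0.30, adjusted p = 0.0183), and RPS6 at 3770 and 3542 CPM against 12874, 10480 and 5437 CPM (log2 1.42 ± 0.32, adjusted p = 0.0202). Those that rose were 12 small subunit, 12 large subunit and 2 paralog genes. RPLP2 (0.05) and RPL3 (0.20) did not pass.

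Other measures moved with these rises in RWPE. Mitochondrial ribosomal genes had a median of 0.62 (35 of 80 rose), genes of like coding length a median of 0.23 (680 of 3436 rose), and host genes of small nucleolar RNAs a median of 0.78 (7 of 11 rose). The part of these in the result was not tested. With offsets for GC content and length 2 members passed, RPS18 being at 1.20 (adjusted p = 0.059) and RPS3A at 1.02 (adjusted p = 0.056). The count was 0 without either ACP control replicate, 6 and 9 without androgen replicates 1 and 2, and 72 without androgen replicate 3.

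The next comparison is that of the surfaces. In control medium 19 of 83 members were higher on ACP than on plastic in RWPE, where 2.83% of all genes were, and 53 of 82 in LNCaP, where 6.74% were. No member was lower in these lines, VCaP had 0 of 82 past the threshold, and MDAPCa2a had no ACP control group. RPS10, a small subunit protein near the mRNA entry, was at 104 and 107 CPM on plastic and 380 and 413 CPM on ACP in RWPE, 3.82-fold higher (log2 1.94 ± 0.24, adjusted p = 0.00517). In LNCaP it was at 82.4 and 89.3 CPM against 321 and 205 CPM (log2 1.72 ± 0.20, adjusted p = 0.00833). RPS21, also of the small subunit, was at 579 and 695 CPM against 2363 and 2059 CPM in RWPE (log2 1.82 ± 0.33, adjusted p = 0.0175). In LNCaP it rose by 1.25 ± 0.21 (adjusted p = 0.0101).

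The median over the members was 0.74 in RWPE, 0.65 in LNCaP and 0.29 in VCaP. Small subunit genes made up 12 of the 19 and 26 of the 53, and no stalk gene passed in either line. RPL3 did not pass, with -0.06 in RWPE, -0.08 in LNCaP and -0.38 in VCaP. The VCaP count of 0 (8 at an unadjusted p under 0.05 in edgeR, 1 in DESeq2) stood where 0.0448% of all genes passed in either direction. RPS10 was still higher in VCaP in both ACP libraries, at 592 and 632 CPM against 292 and 233 CPM (log2 1.27, adjusted p = 0.11).

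Other short genes had positive medians too. Genes of like coding length had medians of 0.23 in RWPE and 0.29 in LNCaP, and mitochondrial ribosomal genes of 0.39 (5 of 80 rose) and 0.54 (33 of 79 rose). RNA without a poly(A) tail, which poly(A) selection should remove, was at 0.76 to 3.81 CPM in summed level in 7 of 8 plastic control libraries and at 7.05 CPM or more in all others. Of the 7 liver genes tested, 6 were lower on ACP in RWPE and in LNCaP and 1 in VCaP. The part of these in the rises was not tested. With offsets for GC content and length 19 members passed in LNCaP in place of 53. Leaving out plastic control replicate 1, plastic control replicate 2, ACP control replicate 1 or ACP control replicate 2 gave 1, 2, 0 and 0 members in RWPE. In LNCaP the counts were 0, 0, 8 and 53 in the same order, and the fit of all lines called 6.

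In stripped serum, both surfaces have day 4 libraries. There 4 of 82 members rose on ACP in LNCaP and 0 fell, where 4.32% of all genes rose, which is near the share of members. They were RPS27L, a p53-induced paralog of RPS27, RPL39, RPS3A and RPL9. RPS27L was at 68.1 and 64.5 CPM on plastic and at 115 and 119 CPM on ACP (log2 0.85 ± 0.15, adjusted p = 0.0107). RPL39 was at 334 and 232 CPM against 427 and 492 CPM (log2 0.74 ± 0.19, adjusted p = 0.0437). Leaving out replicate 1 on plastic, or any 1 of the replicates on ACP, gave 0 members, and leaving out replicate 2 on plastic gave 3. The count was 1 with offsets for GC content and length and 0 in the fit of all lines. Neither VCaP (0 of 82, with 21 at an unadjusted p under 0.05 in edgeR, 0 in DESeq2) nor MDAPCa2a (0 of 80, with 1 at an unadjusted p under 0.05, 0 in DESeq2) had a member past the threshold. Of all genes 0% passed in VCaP and 0.00734% in MDAPCa2a. Their medians were 0.59 and 0.27. The single VCaP plastic library has no replicate of its own and is assumed to vary like the other VCaP groups.

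Stripped serum was then compared with control medium on the same surface. On plastic, 33 of 82 members rose in LNCaP and 0 fell, where 4.61% of all genes rose. RPS10 was at 82.4 and 89.3 CPM in control medium and at 228 and 206 CPM in stripped serum (log2 1.39 ± 0.20, adjusted p = 0.00167). RPS21 was at 187 and 229 CPM against 546 and 364 CPM (log2 1.17 ± 0.21, adjusted p = 0.00636). The stalk gene RPLP1 rose by 0.67 ± 0.19 (adjusted p = 0.0472). The median over the members was 0.55. Genes of like coding length had a median of 0.09 and mitochondrial ribosomal genes of 0.19. Of the 7 liver genes tested, 6 were lower in stripped serum, and their part in the result was not tested. The count was 1 and 8 without control replicates 1 and 2, 4 and 40 without stripped replicates 1 and 2, and 8 in the fit of all lines.

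Elsewhere no member passed this comparison. On plastic, VCaP had 0 of 82 (1 at an unadjusted p under 0.05 in edgeR, 0 in DESeq2; 0.89% of all genes passed in either direction), and MDAPCa2a had 0 of 80 (11 at an unadjusted p under 0.05, 3 in DESeq2; 1.58% of all genes). On ACP, where all libraries are of day 4, LNCaP had 0 of 82 (3 at an unadjusted p under 0.05, 0 in DESeq2; 5.37% of all genes) and VCaP 0 of 82 (12 at an unadjusted p under 0.05, 1 in DESeq2; 0.82% of all genes). The medians over the members were 0.06, 0.36, 0.14 and 0.36 in that order. LNCaP thus had 33 members higher in stripped serum against plastic control, and none against ACP control. The LNCaP libraries in stripped serum are not the same on both surfaces, and the difference between these effects was not tested.

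**Figure D3:**
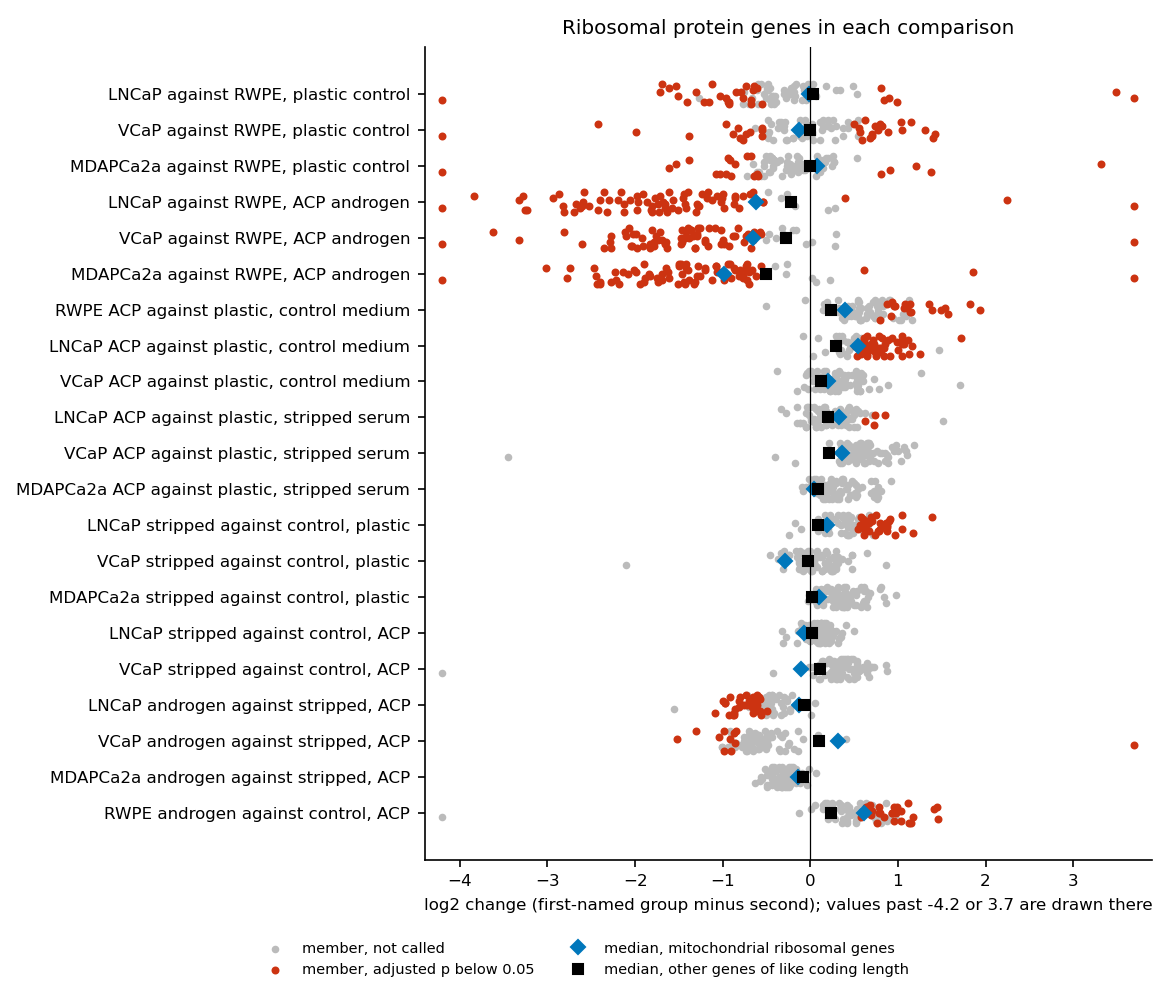
Log2 change of each member (points, horizontal axis, first-named group minus second) in 21 comparisons (vertical axis). Red points passed an adjusted p below 0.05, diamonds are medians of mitochondrial ribosomal genes and squares medians of other genes of like coding length. Members are to the right in LNCaP on ACP against plastic control (median 0.65) and to the left with androgen in LNCaP (-0.57) and VCaP (-0.64).

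Some members set plastic control apart in every line. RPS10, RPS13, RPS21 and RPL34 were lower in both plastic control libraries than in every other library of the same line, in all 4 lines. That is 4 of 83 members, where 0.214% of all genes showed the same. No member was higher throughout, where 225 of 17323 genes were. RPL34 of the large subunit was at 205 and 211 CPM in plastic control of MDAPCa2a and at 263 to 784 CPM in its other libraries. RPS13 of the small subunit was at 395 and 394 CPM against 415 to 1154 CPM there. RPS10 was at 85.3 and 99.8 CPM against 159 to 351 CPM, and RPS21 at 237 and 251 CPM against 343 to 910 CPM. The label continuous culture and the plastic control groups cannot be told apart, and FGG was read mainly in these libraries in all 4 lines.

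**Figure D4:**
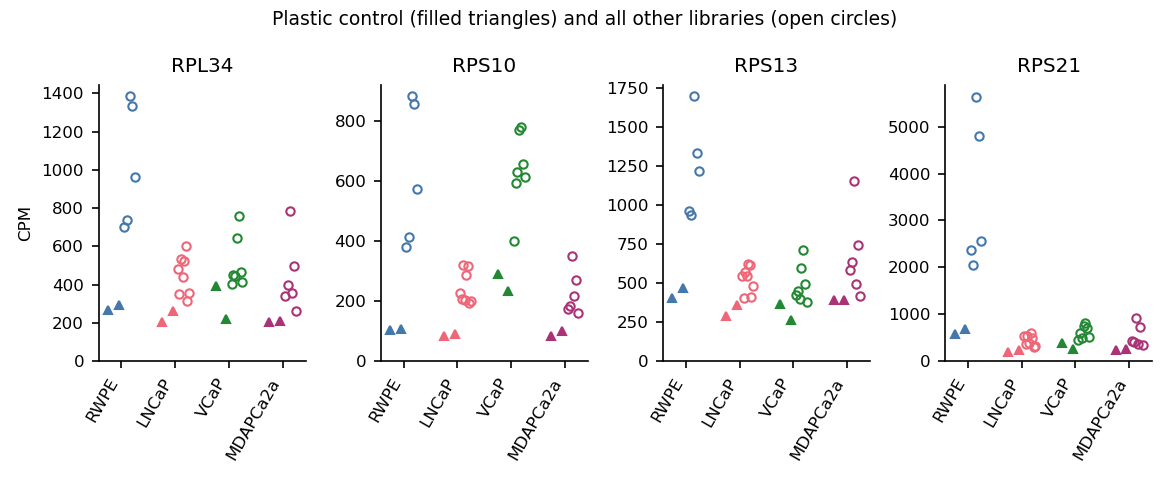
CPM (vertical axes) of RPL34, RPS10, RPS13 and RPS21 in each line (horizontal axes). Triangles are plastic control libraries and circles all other libraries of the line. In MDAPCa2a, RPS10 is at 85.3 and 99.8 CPM in plastic control and at 159 CPM or more elsewhere.

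The lines were compared in plastic control and, in libraries that share none with it, on ACP with androgen. In plastic control of LNCaP, 6 of 83 members were higher and 26 lower than in RWPE, where 29.5% of all genes were higher and 27.9% lower. VCaP had 19 higher and 14 lower, where 32.1% and 30.3% of all genes were. MDAPCa2a had 5 higher and 16 lower, where 28.3% and 28.4% were. The shares of members called were near or below those of all genes, except for the lower ones of LNCaP, which were a little above. The medians were -0.46, -0.02 and -0.27. RPS27A, which encodes a fusion of ubiquitin and a small subunit protein, was at 880 and 979 CPM in RWPE and at 253 and 313 CPM in LNCaP (log2 -1.72 ± 0.31, adjusted p = 3.8e-05). RPS23 of the small subunit decoding site was at 1972 and 1997 CPM in RWPE, and at 635 and 661 CPM in MDAPCa2a (log2 -1.61 ± 0.21, adjusted p = 3.49e-07).

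RPL15 and RPL29 of the large subunit went the other way in all 3 cancer lines. RPL15 was at 602 and 641 CPM in RWPE, at 1206 and 1268 CPM in LNCaP, at 2077 and 1202 CPM in VCaP and at 1083 and 1091 CPM in MDAPCa2a. Each cancer line library was above both RWPE libraries. RPL29 was 2.68-fold higher in VCaP than in RWPE (log2 1.42 ± 0.30, adjusted p = 0.000223). Without RWPE replicate 1 the VCaP count was 20 in place of 33, and without MDAPCa2a replicate 1 the MDAPCa2a count was 13 in place of 21.

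On ACP with androgen, where the share in RWPE was highest, 74 of 83 members were lower in LNCaP than in RWPE, 69 in VCaP and 74 in MDAPCa2a, where 34.8%, 34.6% and 34.2% of all genes were lower. Higher were 3, 1 and 3 members, where 32.2%, 32.8% and 29.9% of all genes were higher. The medians were -1.66, -1.34 and -1.33, those of mitochondrial ribosomal genes -0.62, -0.66 and -0.99 and those of genes of like coding length -0.22, -0.28 and -0.50. RPS21 was at 294 and 313 CPM in LNCaP against 5627, 4796 and 2559 CPM in RWPE (log2 -3.83 ± 0.39, adjusted p = 5.41e-09). All members lower in plastic control were also lower here, 26 of 26 in LNCaP, 14 of 14 in VCaP and 16 of 16 in MDAPCa2a, which are 35.1%, 20.3% and 21.6% of the members lower here. Since 74, 69 and 74 of 83 members were lower here, most members of any subset would be too. The same overlap over all genes is not given here. RPL15 (0.20, 0.28 and 0.07) and RPL29 (-0.17, 0.01 and 0.02) did not differ past the threshold here. The 3 higher members in LNCaP and MDAPCa2a were paralogs, RPL22L1, RPL7L1 and RPL10L. For RPL7L1 in LNCaP (log2 0.40) the call was lost without either LNCaP androgen replicate, and its values ran from 0.39 to 0.63 with 1 library left out. RPL10L had 0 reads in all 3 RWPE androgen libraries, 4 and 6 reads in those of MDAPCa2a and 114 and 130 in those of LNCaP. Its call in MDAPCa2a thus rests on few reads.

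Several paralogs differed between lines. RPL22L1, which can replace RPL22 in the large subunit and which RPL22 is known to repress, was at 16.1 to 62.4 CPM in RWPE, 136 to 345 CPM in LNCaP, 9.03 to 27.4 CPM in VCaP and 143 to 353 CPM in MDAPCa2a. LNCaP and MDAPCa2a overlapped with each other, and all their libraries were above all of RWPE and VCaP. In plastic control RPL22L1 was 11.3-fold higher in LNCaP than in RWPE (log2 3.49 ± 0.29, adjusted p = 3.1e-10) and 9.98-fold higher in MDAPCa2a (log2 3.32 ± 0.29, adjusted p = 6.12e-10). RPL22 itself was at 597 to 892 CPM in RWPE, 247 to 341 CPM in LNCaP, 636 to 1310 CPM in VCaP and 374 to 535 CPM in MDAPCa2a. Its order was the reverse: LNCaP was lowest in all libraries, then MDAPCa2a, with RWPE and VCaP overlapping above them. In plastic control RPL22 was lower than in RWPE by 1.12 ± 0.17 (log2) in LNCaP and by 0.67 ± 0.17 in MDAPCa2a, and higher by 0.63 ± 0.17 in VCaP.

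RPL39L, a paralog of RPL39 known from the testis, was read mainly in RWPE among these lines. It had 741 to 1358 reads in each of the 7 RWPE libraries (30.6 to 67.0 CPM) and 0 to 5 reads in each of the 27 others (at most 0.175 CPM). Whether reads carried over between libraries make up these few was not tested. RPL26L1, a close copy of RPL26, was at 37.5 to 179 CPM in RWPE, 28.0 to 68.0 CPM in LNCaP, 15.9 to 33.1 CPM in MDAPCa2a and 5.24 to 12.5 CPM in VCaP. The VCaP libraries were below all others, and in plastic control VCaP was lower than RWPE by 2.42 ± 0.29 on the log2 scale (adjusted p = 9.89e-08). RPS27L was 2.61-fold higher in MDAPCa2a than in RWPE in plastic control (log2 1.38 ± 0.25, adjusted p = 4.4e-05), and its ranges over all libraries overlapped between the lines. RPL10L had 69 to 259 reads in LNCaP libraries, at most 22 in RWPE, 20 in VCaP and 12 in MDAPCa2a. RPL3L, a paralog known from muscle, had at most 8 reads in any library and passed no filter. RPL7L1 was at 60.4 to 117 CPM in every library.

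**Figure D5:**
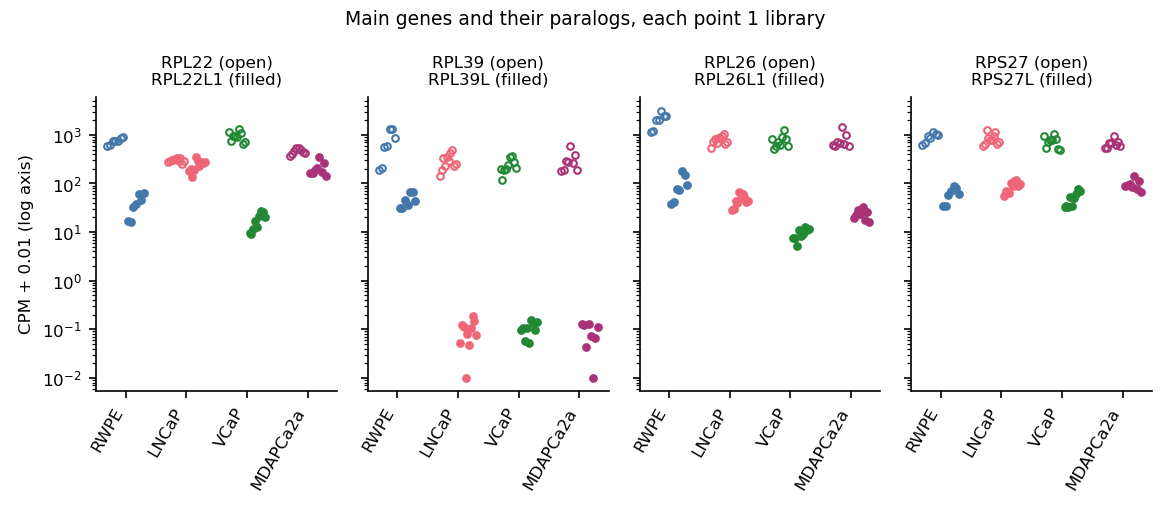
CPM plus 0.01 (vertical axis, log scale) of 4 main genes (open) and their paralogs (filled) in each line (horizontal axes), each point being 1 library. RPL22L1 is at 136 to 345 CPM in LNCaP and 9.03 to 27.4 CPM in VCaP, and RPL39L is at 30.6 CPM or more in RWPE and at most 0.175 CPM elsewhere.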

How the data were processed

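The authors deposited 1 table of whole-number read counts per gene symbol, not normalized, for 34 libraries. The submitters' processing notes name STAR, HTSeq and hg19. The sources used here give no versions, annotation, strand setting or treatment of reads with several matches. Per the labels' protocols, libraries were made with poly(A) selection.

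Members and gene lists were chosen with earlier results of these data known. Counts were tested with edgeR 4.0.16 in R 4.3.3 (quasi-likelihood test, scaling by TMM, a filter by filterByExpr at 10 counts, p-values adjusted over all genes tested by Benjamini-Hochberg, threshold 0.05). Fits used 1 line's groups for comparisons within a line, and all 34 libraries for comparisons of lines. Standard errors (SE) are the log2 change divided by the square root of F. Shares use all counted reads. CPM of members per library uses TMM sizes over all lines. Library totals without TMM were used for CPM of marker genes, liver genes and RNA without a poly(A) tail. The same holds for the means over all libraries and their values per kb. Named were preset members and, per comparison, the 2 largest called rises and falls at 5 CPM or more without overlap. Other members named were chosen after their values were seen. Alternatives included DESeq2 1.42.0, other scalings, no filter, GC and length offsets and leaving out each library. Coding lengths matched 84 members and 90.3% of genes. Scripts were tested on simulated data. At a simulated log2 change of 1, the androgen comparison recovered 130 of 200 changed genes in LNCaP and 8 of 200 in VCaP. At a change of 2 it recovered 199 and 188. Counts of called members for androgen therefore do not compare directly between these lines. Depth was 15.4 M to 44.8 M reads. Some members are not reported here, though the counts include them.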

Additional observations from a re-analysis of the deposited data

Results flagged for a closer look

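The androgen effect on RPL10L differed between VCaP and LNCaP by 6.49 on the log2 scale (VCaP minus LNCaP, adjusted p = 0.0316 in edgeR's quasi-likelihood test of the difference over all lines). The read counts behind it are small: 0 and 0 reads in stripped serum and 7 and 9 reads with androgen in VCaP, against 148 and 134 reads and 114 and 130 reads in LNCaP. The fitted value depends on how a count of 0 is treated and is no bound. The call was lost without 6 of the 8 libraries left out in turn (adjusted p of 0.056 to 0.11).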

How the results depend on the processing

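Of 213 counts of called members under alternatives other than leaving out a library, 164 were within 1.5 times the main count and 49 moved beyond it. For the members named in a comparison, 429 of 487 alternatives kept direction and threshold, 58 lost the threshold and 0 reversed. The cause of a moved count was not tested, except where fewer genes pass by construction. With a log2 change of at least 1 required, fewer members pass: 14, 10 and 9 for LNCaP, VCaP and MDAPCa2a against RWPE on plastic, 13 for the surface in LNCaP control medium and 0 in stripped serum, 4 for stripped serum in LNCaP on plastic, and 1, 4 and 9 for androgen in LNCaP, VCaP and RWPE. With DESeq2 the counts were 32 for MDAPCa2a against RWPE on plastic, 44 and 1 for the surface in RWPE and VCaP control medium, 8 for it in LNCaP stripped serum, 3 for stripped serum in MDAPCa2a on plastic and 1 in VCaP on ACP, 54, 28 and 53 for androgen in LNCaP, VCaP and RWPE, and 4 for the difference of androgen effects. Without the count filter they were 39 and 1 for the surface in RWPE and VCaP control medium, 10 in LNCaP stripped serum, 3 and 1 for stripped serum in MDAPCa2a on plastic and VCaP on ACP, and 55, 29 and 41 for androgen in LNCaP, VCaP and RWPE. With GC and length offsets they were 34 for MDAPCa2a against RWPE on plastic, 19 and 1 for the surface in LNCaP control medium and stripped serum, 2 for stripped serum in MDAPCa2a on plastic, 26 and 2 for androgen in VCaP and RWPE, and 5 for the difference of effects. In the fit of all lines they were 6, 1 and 0 for the surface in LNCaP and VCaP control medium and LNCaP stripped serum, 8, 1 and 1 for stripped serum in LNCaP and MDAPCa2a on plastic and VCaP on ACP, and 1 and 33 for androgen in LNCaP and VCaP. With library totals alone they were 2 for the surface in LNCaP stripped serum, 19 and 15 for androgen in VCaP and RWPE and 2 for the difference of effects, and with TMM computed without the members 7 for androgen in VCaP.

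The labels do not say whether replicates of the same number belong together. Deviations of same-numbered libraries correlated at -0.34 (MDAPCa2a stripped serum, plastic with ACP) to 0.42 (MDAPCa2a on ACP, stripped with androgen). These values differ between pairs of groups and do not settle it. With the replicate number as a block, the counts were 66 for the surface and 69 for androgen in RWPE, and all other counts stayed within 1.5 times.

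With each library left out in turn, the counts ran from 23 to 30, 20 to 28 and 13 to 19 for LNCaP, VCaP and MDAPCa2a against RWPE on plastic, and from 72 to 76, 63 to 70 and 62 to 76 on ACP with androgen. They ran from 0 to 2 and 0 to 53 for the surface in RWPE and LNCaP control medium, 0 to 3 in LNCaP and 0 to 1 in MDAPCa2a stripped serum, 1 to 40 for stripped serum in LNCaP on plastic, 2 to 29, 0 to 9 and 0 to 72 for androgen in LNCaP, VCaP and RWPE, and 0 to 2 for the difference of effects. A lone library left in a group is assumed to vary like the other groups. By effective library size the mean share of RWPE on ACP with androgen was 20.9% in place of 17.8%. The share without mitochondrially encoded genes was not run, since the table used has none. Depth limits RPL21, RPL10L, RPL3L and, outside RWPE, RPL39L.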
